A study of Mus musculus with 6 samples.

Results

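SOX proteins are transcription factors that bind DNA through a shared HMG box, and they are grouped by the similarity of that box. SOX9, of the SOXE group, is required for cells to become chondrocytes and switches on cartilage matrix genes. SOX5 and SOX6, of the SOXD group, have no activation domain of their own and strengthen the binding of SOX9 at those genes, so the 3 are known as the SOX trio. SOX4, SOX11 and SOX12 form the SOXC group, which keeps mesenchymal and neural progenitors alive and competent to differentiate, and SOX2, of the SOXB1 group, is known for stem cell self-renewal. Described here are 8 SOX genes, Sox9, Sox5, Sox6, Sox13, Sox4, Sox11, Sox12 and Sox2, taken by gene symbol from the 16880 genes listed.

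The libraries came from ATDC5, a mouse chondrogenic cell line, and were sequenced to ask what an inhibitor of the actin-bundling protein FSCN1 does to cells under inflammatory stimulation. Cells of 3 libraries were given 10 ng/mL IL-1β, an inflammatory cytokine, and cells of the other 3, called inhibitor-treated, were given the same dose of IL-1β together with 10 μmol/L NP-G2-044, a small molecule inhibitor of FSCN1. The methods give a day of treatment, call the libraries of a group biological replicates, and speak of chondrocytes where the labels name ATDC5. The compound is NP-G2-044 in the sample titles and NP-G2-047 in the treatment label. Cells without IL-1β were not analysed here, each comparison is of inhibitor-treated cells with cells given IL-1β only, and p-values measure the spread between these libraries.

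Library totals lay between 16615824 and 16878164 reads with IL-1β and between 17529844 and 17735860 reads with the inhibitor. Libraries of the same group differed by 1.54 to 2.39 times the variance of sampling noise, and libraries of different groups by 133.1 to 135.8 times. Markers of mature cartilage were at or near 0 in this chondrogenic line. Of 8 such markers 4 are described, and these were Col2a1 with 32 reads over the IL-1β libraries and 6 over the others, Comp with 6 and 7, Col10a1 with 2 and 3, and Matn1 with none. Acan, the gene of the main cartilage proteoglycan, was not analysed here.

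The 8 genes differ widely in structure. In mm10 coordinates with the GENCODE M21 annotation, Sox2 (Entrez gene 20674, chr3:34650405-34652461), Sox4 (20677, chr13:28948919-28953713), Sox11 (20666, chr12:27334264-27342574) and Sox12 (20667, chr2:152393611-152398063) each have a longest transcript of 1 exon. Sox9 (20682, chr11:112782224-112787760) has 3 exons in 5537 bases. The SOXD genes are long and have many transcripts. Sox5 (20678, chr6:143828425-144781977) spans 953553 bases with 14 annotated transcripts, Sox6 (20679, chr7:115470872-116038796) spans 567925 bases with 16, and Sox13 (20668, chr1:133382303-133424377) spans 42075 bases with 5. Isoforms were summed per gene, so levels of single isoforms of Sox5 or Sox6 cannot be read. The non-coding RNA Gm26735, on the opposite strand, shares 2616 exon bases with Sox4, and the antisense RNA Sox5os1 shares 1330 with Sox5. No source used here says whether strand was used in counting, so Sox4 and Sox5 may include reads of these neighbours.

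Promoter sequences are shown for the 3 members that fell most, Sox2, Sox11 and Sox5, beside that of Sox4, the most abundant member, which rose slightly. Of the 8 genes, 7 matched the RefSeq promoter table of GRCm38.p6, and Sox9 did not. Each run is the 250 bases before the RefSeq start, 5′ to 3′ on the strand of the gene. Capitals mark matches on either strand to CCAAT (the CCAAT box) or GGAATG (a motif bound by TEAD factors), and 1 match of each overlaps in Sox4. The windows are chr3:34649745-34649994 on the plus strand for Sox2, chr12:27342719-27342968 on the minus strand for Sox11, chr13:28953700-28953949 on the minus strand for Sox4 and chr6:143947107-143947356 on the minus strand for Sox5. The starts of Sox2 and Sox11 lie outside the genes as GENCODE draws them, and that of Sox4 lies just inside. The start of Sox5 lies deep inside its gene, whose 5′ end on the minus strand is at base 144781977. The Sox5 window therefore describes an internal start and not the 5′ end of the gene.
Sox2: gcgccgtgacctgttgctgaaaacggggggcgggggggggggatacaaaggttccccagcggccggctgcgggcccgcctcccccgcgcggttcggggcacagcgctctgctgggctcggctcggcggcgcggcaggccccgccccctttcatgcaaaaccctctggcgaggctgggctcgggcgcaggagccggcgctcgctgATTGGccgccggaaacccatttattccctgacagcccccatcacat
Sox11: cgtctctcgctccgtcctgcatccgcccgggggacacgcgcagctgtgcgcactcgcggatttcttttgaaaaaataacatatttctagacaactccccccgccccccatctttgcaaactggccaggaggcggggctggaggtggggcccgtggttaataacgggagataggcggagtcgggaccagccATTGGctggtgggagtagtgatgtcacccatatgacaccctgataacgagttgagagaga
Sox4: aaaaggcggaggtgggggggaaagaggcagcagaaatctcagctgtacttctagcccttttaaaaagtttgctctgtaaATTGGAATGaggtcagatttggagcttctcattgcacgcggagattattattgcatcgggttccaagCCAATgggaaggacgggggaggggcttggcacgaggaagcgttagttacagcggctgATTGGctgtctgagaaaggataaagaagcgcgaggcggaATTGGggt
Sox5: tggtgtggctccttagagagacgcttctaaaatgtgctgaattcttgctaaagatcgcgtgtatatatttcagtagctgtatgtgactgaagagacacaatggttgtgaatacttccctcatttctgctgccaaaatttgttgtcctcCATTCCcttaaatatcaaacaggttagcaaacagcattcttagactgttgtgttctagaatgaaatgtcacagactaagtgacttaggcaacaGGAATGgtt

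CCAAT was found in the promoters of Sox2, Sox4, Sox11 and Sox12, which are the members whose longest transcript has 1 exon, and in windows of Sox6, which has 6 annotated starts. This motif stood in 6 of the 12 windows of these genes and occurs in 33.8% of the 32851 promoters of the table. The Sox6 windows with CCAAT are chr7:115801610-115801859 and chr7:115846141-115846390. They lie inside this minus-strand gene, whose 5′ end is at base 116038796, and like the Sox5 window describe internal starts. Shares of the 12 windows are therefore not shares of the 5′ ends of genes. The Sox4 window holds 4 matches, those of Sox2, Sox11 and Sox12 hold 1 each, and the windows of Sox5 and Sox13 hold none. GGAATG was found in 4 of the 12 windows, in Sox4, Sox5 and Sox6, against 12.6% of all promoters. The SOX motif AACAAT occurs in 9.4% of all promoters and was found only in 1 window of Sox6, and the AP-1 motif TGANTCA, which occurs in 6.7%, was found in none of the 12 windows of these genes. The Sox2 window has a GC content of 72% and 27 CpG dinucleotides, and the Sox5 window has 39.6% and 3, against medians of 52.4% and 6 over all promoters. CCAAT stood in promoters of members that fell, that rose and that did not pass the test.

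Levels of the 8 genes covered a wide range within each library. In TPM, which is scaled per transcript length and can be compared between genes, Sox4 was the most abundant SOX gene in both groups with 123.6 ± 2.87 TPM in IL-1β libraries and 139.3 ± 3.42 TPM in inhibitor-treated ones (SD, n = 3 each). With IL-1β alone it was followed by Sox12 at 30 TPM, Sox2 at 27.4, Sox5 at 10.3, Sox9 at 6.44, Sox13 at 1.36, Sox11 at 0.427 and Sox6 at 0.183 TPM. Among neighbours in this order only Sox12 and Sox2 had ranges that overlapped. With the inhibitor the order became Sox4, Sox12, Sox9, Sox2, Sox5, Sox13, Sox6 and Sox11, and only Sox5 and Sox13 had overlapping ranges. Sox9 thus stood below Sox2 and Sox5 with IL-1β and above both of them with the inhibitor, in all 3 libraries of each group.

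**Figure D1:**
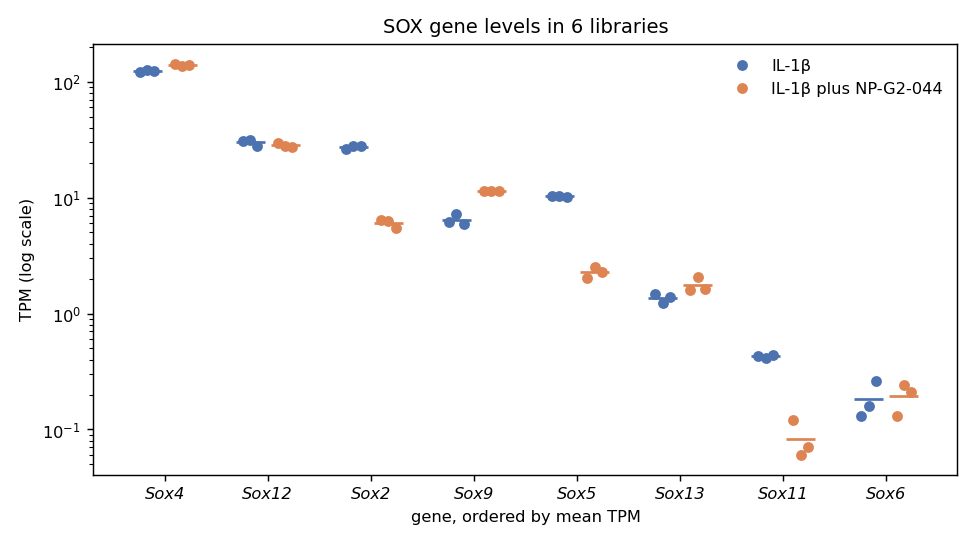
Levels of the 8 SOX genes in TPM on a log axis, ordered by their mean over all 6 libraries, with 1 point per library and a line at the group mean. The groups are apart for Sox2, Sox5, Sox9, Sox4, Sox11 and Sox13, and they overlap for Sox12 and Sox6.

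Counts of 11983 genes were compared by the quasi-likelihood test in edgeR, with Benjamini-Hochberg adjustment, and a positive log2 fold change means a higher level in inhibitor-treated cells. Of the 8 SOX genes 6 had an adjusted p below 0.05, with 3 higher (Sox9, Sox13 and Sox4) and 3 lower (Sox5, Sox2 and Sox11) with the inhibitor, where 80.0% of all tested genes passed, 40.2% higher and 39.8% lower. The median log2 fold change was 0.05 over the 8 genes and 0.00 over all genes. The 3 falls were also past a log2 fold change of 1 in size, which 10.1% of all genes passed toward lower and 6.48% toward higher levels, whereas none of the 3 rises was. No overlap between the groups was seen for the same 6 genes, as for 80.8% of all tested genes. Of the members, 7 reached the filter's level of 0.581 CPM in all 6 libraries, and Sox11 reached it in 3 IL-1β libraries and 1 other library. Sox11 could therefore be tested only because it was higher with IL-1β, and its place among the 3 falls is given as a description. These are bulk libraries, in which fewer cells that express a gene and less RNA per cell cannot be told apart.

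**Figure D2:**
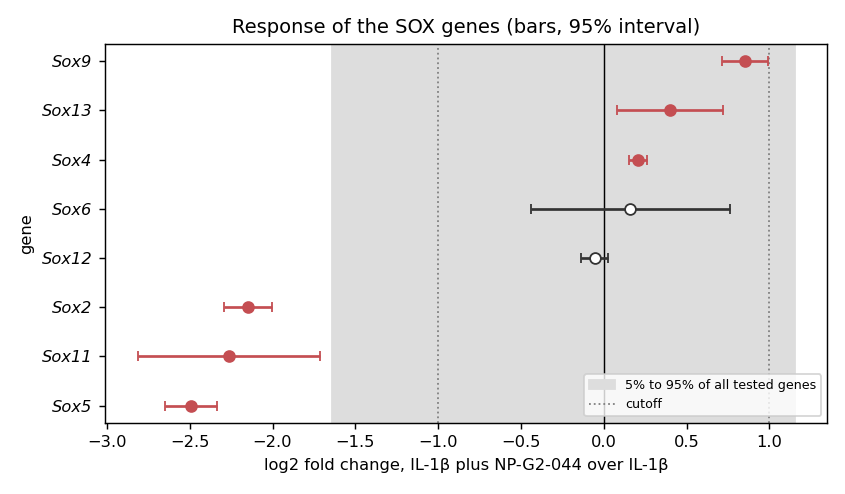
Log2 fold change of each SOX gene, inhibitor-treated over IL-1β, with a bar for the 95% interval of 1.96 standard errors on either side, filled where the adjusted p was below 0.05. The grey band runs from −1.64 to 1.15 and holds the middle of all tested genes from 5% to 95%. Sox2, Sox11 and Sox5 lie to the left of it, and the other 5 genes lie inside it.

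Sox9 had 257, 291 and 245 reads with IL-1β and 493, 508 and 504 reads with the inhibitor. In TPM these were 6.18, 7.21 and 5.94 against 11.34, 11.42 and 11.31. Every inhibitor-treated library was above every IL-1β library, and the inhibitor-treated libraries were closer to each other than the IL-1β libraries were. The level rose 1.8-fold, with a log2 fold change of 0.85 ± 0.0701 (SE) and an adjusted p of 5.13e-16 in edgeR, and 991 of the 11983 tested genes rose more. Tested against a fold change of 2, Sox9 did not pass (adjusted p = 1, edgeR).

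Sox5, the most abundant SOXD gene with IL-1β, moved the other way. It had 613, 579 and 582 reads with IL-1β and 95, 118 and 118 with the inhibitor. The corresponding levels were 10.33, 10.32 and 10.18 TPM against 2.03, 2.52 and 2.26 TPM, and the highest inhibitor-treated library was far below the lowest IL-1β library. Its level was 5.63-fold lower, with a log2 fold change of −2.49 ± 0.0811 (SE) and an adjusted p of 5.24e-33 in edgeR, and 294 tested genes had a lower value. In TPM the fall was smaller, with a log2 fold change of −2.14 by limma on log2(TPM + 0.1). The cause of this gap between counts and TPM was not tested.

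Sox6, the other SOXD partner of SOX9, was barely detected. Its rounded counts were 10, 16 and 14 with IL-1β and 15, 17 and 15 with the inhibitor, and it was the only member with counts that were not whole in the deposited table. The log2 fold change was 0.16 with a 95% interval of −0.44 to 0.76 (adjusted p = 0.639, edgeR), and pooled reads scaled by group totals gave a ratio of 1.12, for which the exact Clopper-Pearson interval at 95% ran from 0.717 to 1.75 and covers counting error only. At this depth neither a fall to 0.717 of the level nor a rise of 1.75-fold could be told from no change. Without IL-1β replicate 1 the log2 fold change was −0.01.

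Sox13, the third SOXD gene, is best known from T cell development. It had 50, 42 and 48 reads with IL-1β and 57, 75 and 62 with the inhibitor, or 1.47, 1.24 and 1.38 TPM against 1.58, 2.06 and 1.63 TPM. The groups did not overlap, and the gap between 1.47 and 1.58 TPM was smaller than the spread inside either group. The log2 fold change was 0.40 ± 0.163 (SE), with an adjusted p of 0.024 in edgeR. This call rests on single libraries, since the adjusted p was 0.0943 without IL-1β replicate 2 and 0.15 without inhibitor-treated replicate 2, where the value fell to 0.28. DESeq2 did not call it either (adjusted p = 0.112).

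The SOXE and SOXD members of the trio therefore changed in relation to each other. The ratio of Sox9 to the sum of Sox5 and Sox6, in TPM, was 0.591, 0.688 and 0.569 with IL-1β and 5.25, 4.14 and 4.58 with the inhibitor. The mean ratio went from 0.616 ± 0.0634 to 4.66 ± 0.56 (SD, n = 3 each). Sox5 was the more abundant transcript in every IL-1β library and Sox9 in every inhibitor-treated library. No p is given for this ratio, because its members were chosen with results of these data known.

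Sox2 had 624, 633 and 655 reads with IL-1β and 159, 157 and 137 reads with the inhibitor. Its levels were 26.47, 27.67 and 28.04 TPM against 6.46, 6.24 and 5.44 TPM. The groups were far apart, with no inhibitor-treated library above 6.46 TPM and no IL-1β library below 26.47 TPM. The level was 4.43-fold lower, with a log2 fold change of −2.15 ± 0.0734 (SE) and an adjusted p of 4.76e-32 in edgeR, and 379 tested genes had a lower value. With IL-1β, 68.8% of all listed genes had a lower mean TPM than Sox2, and with the inhibitor 46.3% did.

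Among the SOXC genes, Sox4 is known as a target of TGF-β in many cell types. It had 5885, 5963 and 5879 reads with IL-1β and 7242, 7059 and 7185 reads with the inhibitor, which correspond to 121.56, 126.91 and 122.43 TPM and to 143.05, 136.34 and 138.53 TPM. All inhibitor-treated libraries were above all IL-1β libraries, by a small step. The rise was 1.15-fold, with a log2 fold change of 0.21 ± 0.0278 (SE) and an adjusted p of 3.23e-09 in edgeR, and 4150 tested genes rose more. In added TPM this small relative rise was larger than the whole level of Sox9 or Sox5 in these libraries.

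Sox11, a close relative of Sox4 in sequence, had 38, 35 and 38 reads with IL-1β and 11, 6 and 7 reads with the inhibitor. In TPM it was at 0.43, 0.41 and 0.44 against 0.12, 0.06 and 0.07. The groups did not overlap, and few reads were left with the inhibitor. The level was 4.8-fold lower, with a log2 fold change of −2.26 ± 0.281 (SE) in edgeR, between −2.56 and −2.09 with each library left out in turn. Sox11 was tested only through the IL-1β group, in which it was high, so these values are given as a description.

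Sox12, the third SOXC gene, had 1384, 1358 and 1226 reads with IL-1β and 1370, 1340 and 1304 with the inhibitor, or 30.96, 31.3 and 27.65 TPM against 29.3, 28.03 and 27.23 TPM. The groups overlapped. Its log2 fold change was −0.06 with a 95% interval of −0.14 to 0.03 (adjusted p = 0.229, edgeR), and a rise as large as that of Sox4 lies outside this interval. Without IL-1β replicate 3, its lowest library in that group, the value was −0.11 (adjusted p = 0.0145, edgeR).

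In total, the summed level of the 8 genes was 199.7 ± 4.83 TPM with IL-1β and 189.2 ± 4.17 TPM with the inhibitor (SD, n = 3 each). SOXC transcripts made up 77.1% ± 0.405 of this sum with IL-1β and 88.6% ± 0.516 with the inhibitor, nearly all of it Sox4 and Sox12. The share of Sox2 went from 13.7% ± 0.487 to 3.19% ± 0.243, that of the SOXD genes from 5.92% ± 0.185 to 2.23% ± 0.327 and that of Sox9 from 3.22% ± 0.257 to 6% ± 0.14. For each of these 4 shares the ranges of the groups did not overlap, whereas the share of Sox12 was 15% ± 0.823 and 14.9% ± 0.273.

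**Figure D3:**
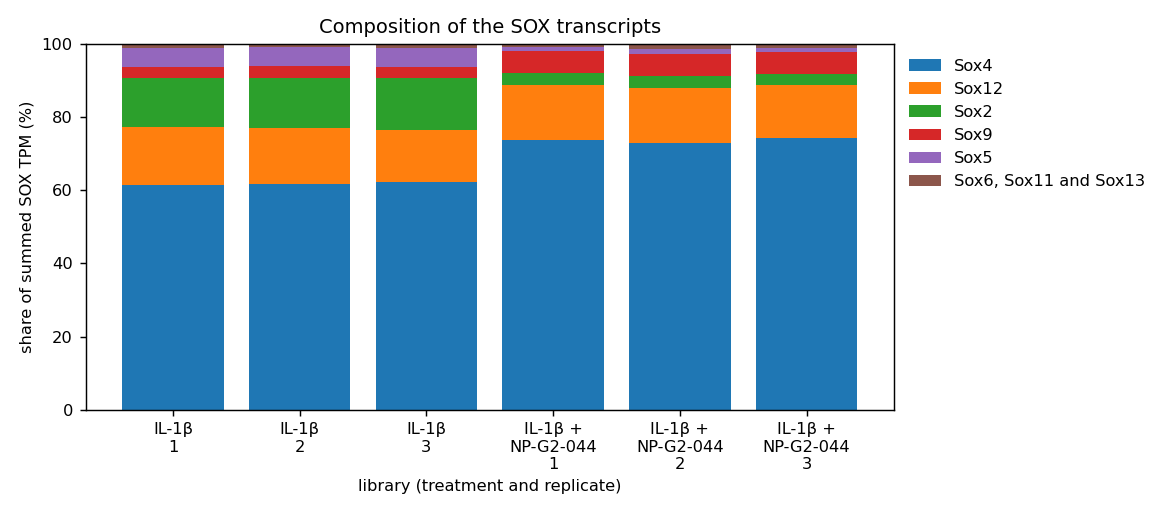
Share of each SOX gene in the summed TPM of the 8 genes, as stacked bars from 0 to 100%, with 1 bar per library. Sox4 takes 61.5% to 62.4% in the IL-1β libraries and 72.9% to 74.2% in the inhibitor-treated libraries, and the band of Sox2 shrinks from 13.4% or more to 3.34% or less.

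Of 11 other SOX genes, 6 had values here, each with at least 1 read, and no value is given for the others. Sox21, a SOXB2 repressor, had 12, 14 and 8 reads with IL-1β and 10, 11 and 21 with the inhibitor, and it was the only one with enough reads to be tested (log2 fold change 0.23, adjusted p = 0.542, edgeR). Sox8, the closest relative of Sox9 described here, had 2 reads, all in 1 IL-1β library. Among the SOXF genes, which act in blood vessels, Sox7 had 5, 0 and 4 reads with IL-1β and none with the inhibitor, and Sox18 had 1 read against 7. Sox15 had 5 reads in each group and Sox30 had 3 and none.

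The genes that SOX9 and its partners switch on in cartilage were mostly not expressed at a level that could be tested. Of 18 such genes 12 had values, 5 were tested, and 3 of these reached the filter's level in all 6 libraries. Of these 3, 1 was higher, 1 was lower and 1 did not pass, beside 40.2% higher and 39.8% lower over all tested genes. Wwp2, which encodes a ubiquitin ligase and hosts a cartilage microRNA, stood at 81.5 ± 0.616 TPM with IL-1β and rose to 91.9 ± 1.07 TPM (SD, n = 3 each, log2 fold change 0.14, adjusted p = 2.51e-05, edgeR). Col11a2, a chain of collagen XI, stood at 5.01 ± 0.229 TPM and fell to 3.43 ± 0.184 TPM (SD, n = 3 each, log2 fold change −0.56, adjusted p = 1.18e-08, edgeR). Col2a1, which encodes the main collagen of cartilage, had 12, 10 and 10 reads with IL-1β and 1, 3 and 2 with the inhibitor, and Col27a1, another fibrillar collagen, had 27, 15 and 16 reads against 4, 7 and 0. Both reached the filter's level in the 3 IL-1β libraries and in 0 of the others, so they were tested only through the group in which they were high, and their reads are given as a description. Col9a3 did not pass (log2 fold change 0.13, adjusted p = 0.665, edgeR).

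Genes for proteins that bind or modify SOX9 were expressed in both groups. Of 14 tested genes of this kind 13 reached the filter's level in all 6 libraries. Among these 13, Arid5a, Kpnb1 and Med12 were higher, 6 were lower and 4 did not pass. Over all tested genes 40.2% were higher and 39.8% lower. Ppargc1a, tested only through the inhibitor-treated group, brings the number higher to 4. The median log2 fold change over the 14 was 0.04. Counted over the whole list, the number higher was 2 when IL-1β replicate 2 was left out, 2 with limma on TPM and 1 with the filter of 10 CPM. It was 5 with no filter, 5 without IL-1β replicate 3 and 6 once trends on GC content and length were removed. Ppargc1a, the coactivator PGC-1α, had 4, 3 and 3 reads with IL-1β and 16, 30 and 27 with the inhibitor, and it reached the filter's level only in the inhibitor-treated libraries, through which it was tested. Arid5a, an AT-rich domain protein that works with SOX9 in cartilage, rose from 3.39 ± 0.0586 to 12.5 ± 0.413 TPM (SD, n = 3 each, log2 fold change 1.92, adjusted p = 1.97e-32, edgeR). Its relative Arid5b, another gene of the list that is named here because of its values, fell from 27.4 ± 1.15 to 11 ± 0.288 TPM (SD, n = 3 each, log2 fold change −1.23, adjusted p = 2.57e-33, edgeR). Among the most abundant, Prkaca, the catalytic subunit of the kinase that phosphorylates SOX9, fell (log2 fold change −0.56, adjusted p = 2.28e-21, edgeR), and Kpnb1, the nuclear import receptor, rose slightly (0.07, adjusted p = 0.0176).

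Of 4 genes known as SOXC targets in neural and mesenchymal cells 3 were tested. Tubb3, a neuronal tubulin, rose with a log2 fold change of 1.93 and Tead2, a partner of YAP, with one of 0.10, while Map2, a microtubule-binding protein, fell with one of −1.57. Around SOX2, the stem cell factors Nanog and Esrrb were near 0, with 16 reads against 1 and 3 against 3, and Pou3f1 had no read, while Klf4 and Myc, which many cell types use, rose with log2 fold changes of 1.34 and 0.49 while Sox2 fell. Of 20 tested genes for other HMG-box proteins 4 were higher, 12 lower and 4 did not pass, with a median log2 fold change of −0.24, beside 40.2% higher and 39.8% lower over all tested genes. The number higher was 1 with limma on TPM and 7 once trends on GC content and length were removed. The chromatin protein genes Hmgb1 and Hmgb2 fell with log2 fold changes of −1.23 and −1.54 and the Wnt effector Tcf7l2 with one of −1.56, while Ssrp1, a histone chaperone subunit, had a value of 0.02 (adjusted p = 0.537, edgeR).

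**Figure D4:**
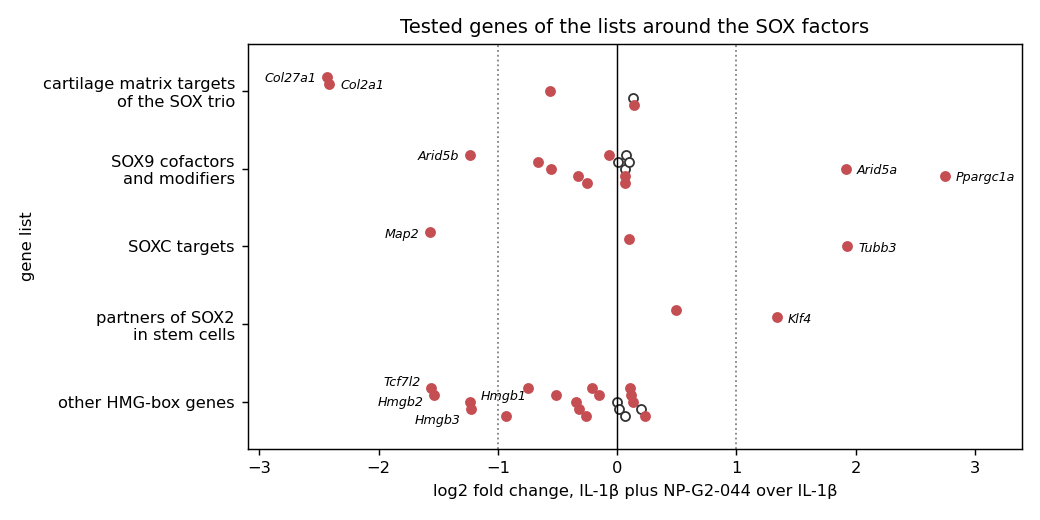
Log2 fold change of every tested gene in the 5 lists around the SOX factors, 1 point per gene, filled where the adjusted p was below 0.05, with names past the cutoff of 1 in size. Col2a1, Col27a1 and Ppargc1a passed the filter through 1 group only, the cofactors of SOX9 lie on both sides of 0, and the genes for other HMG-box proteins past the cutoff are all lower with the inhibitor.

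Markers of other cell types were read beside the SOX genes, and their counts beside 40.2% higher and 39.8% lower over all tested genes. In the neural list, whose cells use Sox2 and Sox11, 4 of 10 genes were tested, with Tubb3 higher, Map2 lower and Syp and Elavl3 not passing, and the summed level was 15.4 to 17.7 TPM with IL-1β and 22.9 to 25.1 TPM with the inhibitor. The neural progenitor gene Nes had 4 reads in all with IL-1β and 1 with the inhibitor, and the glial gene Gfap had 1 in each group. Of 8 fibroblast markers 5 were tested, 4 of them lower and Pdgfra higher, and the summed level, mostly Col1a2, went from 1134 to 1182 TPM with IL-1β to between 355.9 and 372 TPM. Of 7 osteoblast markers 4 were tested, and Runx2 and Phex, which reached the filter's level in all 6 libraries, were lower. Sp7, with 156 reads in all against 33, and Alpl, with 129 against 6, were tested only through the IL-1β group, and the summed level of the list was 28.7 to 30.9 TPM with IL-1β and 16.2 to 17.4 TPM with the inhibitor. The blood cell list rose from between 10.8 and 14.1 TPM to between 124 and 134.8 TPM through Cd68, which many cells use in lysosomes, while Ptprc, which all white blood cells carry, was at 0 in all 6 libraries and Csf1r had 25 reads against 17. Muscle, epithelial and endothelial markers had no tested gene and a summed level of at most 1.35 TPM in any library, with Myod1, Krt8 and Pecam1 the most abundant of each. This maximum rests on IL-1β replicate 3, where Krt8 stood at 1.17 TPM, against at most 0.06 TPM in any other library. The part of these marker shifts in the values of the SOX genes was not tested.

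Over the 6 libraries the genes with log2 CPM most like that of Sox9 included Ilrun and Rnf114, with Pearson correlations of 0.999 and 0.998, and 2795 tested genes had a correlation above 0.95. The 6 libraries share the step between the groups, so these values are a description only. Of the SOX genes Sox4 came closest at 0.984, and Sox2 and Sox5 were at −0.98.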

How the data were processed

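RNA of 6 libraries was sequenced and quantified by BGI. The submitters' processing notes name cutadapt, HISAT2 2.0 and StringTie and the build mm10, and no source used here gives the counting tool or its annotation. The authors deposited for each gene and library an estimated count, which is not normalized, and TPM and FPKM, which are scaled by length and library. The length behind TPM was not 1 fixed value per gene. Sox6 had 16 reads at 0.16 TPM in IL-1β replicate 2 and 14 reads at 0.26 TPM in IL-1β replicate 3. FPKM served as an alternative for shares, and the group means of the authors were left aside.

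Counts were rounded, filtered with filterByExpr (minimum count 10), normalized with TMM (factors 0.997 to 1.002) and fitted in edgeR 4.0.16 on R 4.3.3 (glmQLFit with robust = TRUE, glmQLFTest, group as the only term). Benjamini-Hochberg adjustment ran over 11983 genes, and the cutoffs were an adjusted p of 0.05 and a log2 fold change of 1 in size. A standard error is the log2 fold change over the square root of F. The steps were run on simulated counts in which far fewer genes changed than were called here. That run cannot show how the fits behave when most genes change. Values in TPM are given as mean ± SD.

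The members and gene lists were chosen with earlier results of these data known. The genes named are all 8 members, other SOX genes with a read, the tested cartilage targets, and in each other list the 3 most abundant and the 2 with the largest change, and those most like Sox9 over the libraries, apart from some in the marker lists and some that are not reported here. Alternatives were DESeq2 1.42.0, DESeq2 size factors, library size alone, limma 3.58.1 (voom, log2(TPM + 1), log2(TPM + 0.1)), no filter, a filter of 10 CPM, a replicate block, each library left out, a test against a fold change of 2, and removal of trends on GC content and length of the longest GENCODE M21 transcript (98.3% of tested genes). A planned comparison of the SOX proteins was not run.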

Additional observations from a re-analysis of the deposited data

How the results depend on the processing

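Of 133 log2 fold changes of SOX genes computed under 17 other settings, 123 kept their direction and their side of the adjusted p of 0.05. Sox5 and Sox2 stayed lower and called wherever they were tested. Sox11 was also lower and called wherever it was tested. This is given as a description only, since Sox11 passed the main filter only through the IL-1β group. Tested against a fold change of 2, Sox9 (0.85), Sox4 (0.21) and Sox13 (0.40) did not pass, so that 0 SOX genes were called as higher, and by that test 564 of all genes were higher and 909 lower in place of 4816 and 4768. Sox13 was not called by DESeq2 (0.39) or limma on log2(TPM + 0.1) (0.34), and with each library left out its value was 0.28 to 0.48. Sox6 ranged from −0.0111 to 0.314 and Sox12 from −0.115 to −0.0236 with libraries left out, and Sox12 was at 0.0218 once trends on GC content and length were removed. The cause of these shifts was not tested. The pseudocount of 1 TPM brought Sox11 from −2.26 to −0.40, as it must for a gene below 1 TPM. Past both cutoffs, limma on log2(TPM + 1) gave 516 genes higher and 805 lower, and the filter of 10 CPM, which dropped Sox6, Sox11 and Sox13, gave 484 and 680, against 776 and 1211. The counts in the other gene lists moved most often under the test against a fold change of 2. With the replicate number as a block, Sox13 was at 0.40 (adjusted p = 0.0299, edgeR) and no call among the SOX genes changed. Libraries sharing a number did not deviate together (correlations −0.093, −0.023 and 0.026), so the numbers were not taken to pair the samples. Sox6, Sox11 and Sox13 rest on few reads, and depth limits what their values can show.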
